A study of Mus musculus with 12 samples.

Results

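The 47 genes described here are expressed by macrophages and monocytes, and their transcripts were followed by RNA-seq in satellite cells, which are the stem cells of muscle, taken from injured mouse hindlimb. The genes form a list of myeloid markers chosen by name, with earlier results of these data known. Shares of the list set against all genes therefore describe it and are no independent test. A member was kept if it had 10 or more reads in total over the 12 libraries. All 47 listed genes were kept, of 22310 gene symbols counted. The libraries fall into 4 groups of 3: wild type and Hoxa9 knockout, each young (3 to 4 months) and old (22 to 28 months), all labelled as the C57BL/6 strain. Every animal, controls included, had received 50 µl of 1.2% barium chloride, a muscle toxin that activates satellite cells, over about 20 sites, and the cells were taken 3 days later. The labels do not say how the Hoxa9 gene was inactivated, whether it was lost in all tissues, or whether a library came from 1 animal or several. P-values therefore measure the spread between these libraries, which may be technical.

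Macrophages enter injured muscle from circulating monocytes, clear dead fibres and release factors that act on satellite cells. They depend on the receptor Csf1r for survival, take up debris through scavenger and Fc receptors, digest it in lysosomes, and signal through adaptors that carry an immunoreceptor tyrosine-based activation motif (ITAM). Early after injury the cells are inflammatory, and later ones carry more of the mannose receptor Mrc1 and the haemoglobin receptor Cd163. In RNA from a whole sorted fraction, fewer cells of a type and less RNA per cell cannot be told apart.

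Many myeloid promoters are bound by the ETS factor PU.1, encoded by Spi1, whose core site reads GAGGAAG on one strand and CTTCCTC on the other. RefSeq promoters (build GRCm38.p6, from 250 bases before to 50 bases after a start) were found for 35 of the 47 genes. The 7 letters stood on either strand in 10 of these 35 genes (28.6%), against 15.4% of all 27025 genes with a promoter in the table. The 10 genes were Ctss, Laptm5, Pld4, Trem2, Fcgr1, Fcgr3, C1qc, Itgam, Cd53 and Mrc1. Mrc1 is shown because it was the only one of them past the threshold in the fit of all 12 libraries, and Trem2 and C1qc were added after their values had been seen, as a receptor and a complement gene with the same letters. The 250 bases before each start are given 5′ to 3′ on the gene's strand, at chr2:14229164-14229413 (+ strand, Mrc1), chr17:48346151-48346400 (+ strand, Trem2) and chr4:136892915-136893164 (- strand, C1qc), with the motif in capitals.
Mrc1: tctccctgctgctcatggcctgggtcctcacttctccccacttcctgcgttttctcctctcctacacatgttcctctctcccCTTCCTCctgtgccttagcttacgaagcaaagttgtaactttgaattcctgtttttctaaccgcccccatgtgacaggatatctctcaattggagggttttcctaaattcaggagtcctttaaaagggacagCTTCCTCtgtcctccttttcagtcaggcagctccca
Trem2: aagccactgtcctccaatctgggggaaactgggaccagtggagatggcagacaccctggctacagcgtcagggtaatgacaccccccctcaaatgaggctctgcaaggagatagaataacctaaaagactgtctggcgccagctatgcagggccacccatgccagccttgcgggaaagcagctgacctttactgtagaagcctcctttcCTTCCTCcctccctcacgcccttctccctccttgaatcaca
C1qc: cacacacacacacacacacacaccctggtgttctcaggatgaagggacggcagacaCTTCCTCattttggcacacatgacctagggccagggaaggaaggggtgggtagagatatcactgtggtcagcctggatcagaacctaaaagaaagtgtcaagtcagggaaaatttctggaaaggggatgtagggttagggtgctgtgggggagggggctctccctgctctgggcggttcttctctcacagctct
The first base of the motif lies at -168 and -36 in Mrc1, at -41 in Trem2 and at -194 in C1qc, counted from the start. A match describes the letters only, since binding was not measured.

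Reads counted in genes numbered 4193433 to 20337015 per library. Levels are given as CPM, reads of a gene per 1000000 gene reads after scaling between libraries. Hoxa9 stood at 7.95 to 11.4 CPM in young wild type, 14.7 to 22.5 CPM in old wild type and 4.55 to 7.20 CPM in the 6 knockout libraries. The satellite cell and myoblast markers, 13 genes with Pax7, Myod1 and Des among them, summed to 6989 to 10726 CPM in every library, against 202 to 616 CPM for the 47 macrophage and monocyte genes. Other marker lists were also high: fibroblast markers summed to 5369 to 11899 CPM and mature myofibre markers to 3711 to 17366 CPM. Pericyte and smooth muscle markers summed to 2775 to 4419 CPM. The purity of the fraction was not measured. Old wild type replicate 2 and old knockout replicate 3 had the most reads outside genes (57.1% and 70.8% of uniquely aligned reads, against 32.2% to 52.5% in the other libraries). Old wild type replicate 2 also had reads in 20282 genes, against 14795 to 16711 in the other libraries. Its lymphocyte markers summed to 8.94 CPM, against 0.290 to 2.82 CPM elsewhere. Whether this bears on its low-count members was not tested. Reads of Lars2, a nuclear gene for a tRNA synthetase of mitochondria, made up 0.484% to 25.0% of gene reads in the knockout libraries and at most 0.11% in wild type. Only old knockout replicates 2 and 3 held many reads of the Y-linked gene Ddx3y (125 and 150 CPM, against at most 5.10 CPM elsewhere), so their sex may differ from that of the other libraries.

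Lgals3, which encodes the secreted lectin galectin-3 and is also expressed outside the myeloid lineage, held 32.3% to 82.8% of the reads of the 47 genes. The summed level is therefore given for the other 46 genes. Young wild type stood at 103, 126 and 74.8 CPM, and old wild type at 354, 323 and 320 CPM. Young knockout stood at 417, 64.2 and 84.1 CPM, and old knockout at 78.9, 62.8 and 229 CPM. All 3 old wild type libraries lay above all 3 young ones, while within each knockout group a single library (young knockout replicate 1, old knockout replicate 3) stood well above the other two. The group means were 101 ± 25.8 CPM (young wild type), 332 ± 18.7 CPM (old wild type), 188 ± 198 CPM (young knockout) and 123 ± 91.5 CPM (old knockout), each with its SD and n = 3. These sums have no test of their own. They include Gpnmb, which like Lgals3 is also expressed outside the myeloid lineage. Gpnmb stood at 32.4, 20.6 and 45.3 CPM in old knockout and 31.8, 30.9 and 37.4 CPM in old wild type. It thus made up a larger part of the low sums of old knockout replicates 1 and 2 than of the old wild type sums.

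**Figure D1:**
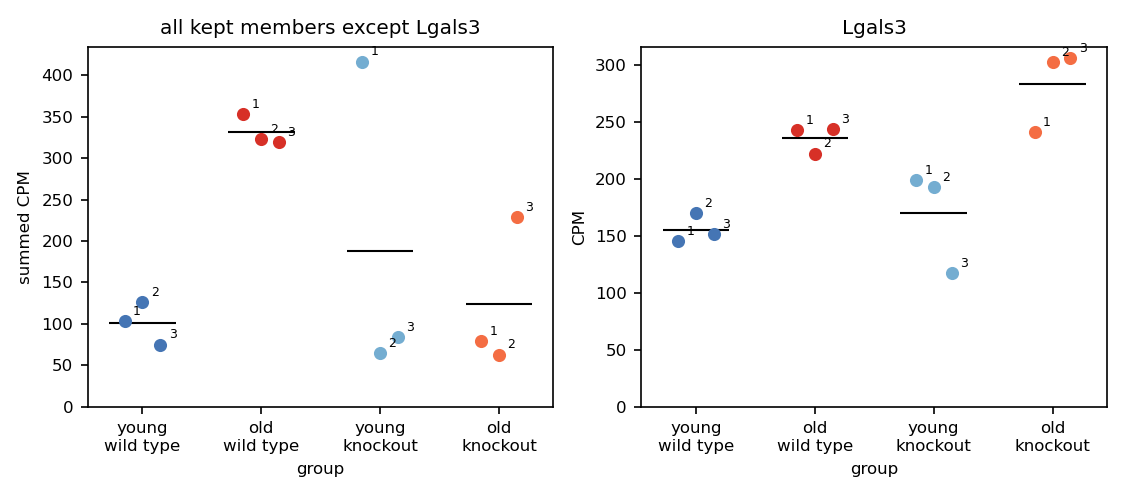
Summed level of the macrophage and monocyte genes other than Lgals3 (left) and level of Lgals3 (right), in CPM (vertical axes) by group (horizontal axes), with numbered points for replicates and a line for the group mean. The old wild type libraries sit between 320 and 354 CPM, while young knockout replicate 1 (417 CPM) and old knockout replicate 3 (229 CPM) stand apart from the rest of their groups in the left panel.

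The first comparison asked how the transcripts of activated satellite cells change with age in wild type. All 42 genes with enough reads to be tested had a positive log2 fold change, old against young (50.9% of all genes tested did), with a median of 1.80 against 0.01 over all 13540 genes tested. The filter asked for enough reads in as many libraries as 1 group holds, so old wild type alone could bring a gene in. Clec4n (5, 0 and 0 reads in young and 27, 17 and 16 in old wild type) and Msr1 entered that way. For such genes a positive value was favoured in advance, and their number was not taken. Across these 42 genes, 36 had all 3 old libraries above all 3 young ones (13.1% of all genes tested did so). Only Msr1 passed the threshold (adjusted p under 0.05, edgeR's quasi-likelihood test with Benjamini-Hochberg adjustment), 1 of 42 against 0.258% of all genes called higher. The fit shares 1 estimate of spread over the 4 groups, and the median coefficient of variation of the 47 genes was 49.9% in young wild type, 22.9% in old wild type, 132% in young knockout and 93.9% in old knockout. With only the 6 wild type libraries in the fit, 25 of 43 members rose, against 2.53% of all genes called higher. Leaving out any 1 of the 6 wild type libraries from the 12-library fit gave 0 calls. The fit of all 12 libraries called only 0.258% of all genes higher, so these 0 calls say little about the members.

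Csf1r, the receptor through which macrophages survive, stood at 4.56, 5.24 and 3.60 CPM in young and 10.4, 13.2 and 12.04 CPM in old wild type. The groups did not overlap, and the log2 fold change was 1.42 ± 0.88 (SE, adjusted p = 0.521). Emr1, the older symbol of the gene for the macrophage surface receptor F4-80, stood at 2.33, 3.39 and 1.44 CPM in young and 7.68, 6.85 and 7.08 CPM in old wild type, again without overlap (1.63 ± 0.87, adjusted p = 0.447). Both were among the 25 genes past the threshold with the wild type libraries alone. The chemokine receptors Ccr2 and Cx3cr1, which mark inflammatory and patrolling monocytes, had 47 and 59 reads over all 12 libraries and were too low to test.

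Of the lysosome, lysozyme and phagosome genes, all 8 tested members had higher levels in each old wild type library than in any young one, with log2 fold changes of 1.05 to 2.13 (median 1.42). Lyz2, the macrophage lysozyme, stood at 12.2, 12.9 and 8.09 CPM in young and 48.9, 45.0 and 47.8 CPM in old wild type (2.10 ± 0.77, adjusted p = 0.246). Its near-identical neighbour Lyz1 had 46 reads in all, and reads could be split between the pair. Cd68, a lysosomal glycoprotein of macrophages, stood at 5.72, 7.71 and 4.09 CPM in young and 14.5, 15.2 and 13.9 CPM in old wild type (1.33 ± 0.42, adjusted p = 0.147). Slc11a1, which pumps metal ions out of the phagosome, stood at 3.68, 3.55 and 2.24 CPM in young and 5.84, 5.96 and 7.76 CPM in old wild type (1.05 ± 0.30, adjusted p = 0.114). The young and old libraries did not overlap for any of these 3 genes.

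The ITAM adaptors and their Fc, lectin and Trem receptors had a median log2 fold change of 2.25 over 8 genes, and 7 of them did not overlap between the ages. Fcer1g, the adaptor chain of Fc receptors, stood at 0.969, 1.08 and 0.641 CPM in young and 5.16, 4.37 and 3.33 CPM in old wild type (2.26 ± 0.64, adjusted p = 0.109). The exception was Fcgr2b, the inhibitory Fc receptor, whose log2 fold change was 0.62 with overlapping groups. Of 6 tested integrin and leukocyte surface genes, 5 did not overlap (median 2.28). Ptprc encodes CD45, the phosphatase carried by all leukocytes. It stood at 0.921, 0.925 and 0.561 CPM in young and 3.75, 2.88 and 3.47 CPM in old wild type, with no overlap (2.06 ± 1.15, adjusted p = 0.467).

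Scavenger receptors had the highest median of the 10 role groups, 3.02 over 3 genes. Msr1, a scavenger receptor for modified lipoproteins, had 1, 1 and 2 reads in young and 41, 34 and 26 reads in old wild type. Its level was 0.0485, 0.154 and 0.160 CPM in young and 2.52, 3.38 and 1.77 CPM in old wild type, so the groups lay far apart although the young libraries held almost no reads. The log2 fold change was 4.44 ± 0.99 (adjusted p = 0.0496). Mrc1, the mannose receptor, stood at 1.94, 2.31 and 2.08 CPM in young and 21.0, 17.0 and 12.9 CPM in old wild type (3.02 ± 0.89, adjusted p = 0.145). Cd163 stood at 5.91, 3.24 and 2.24 CPM in young and 7.87, 9.73 and 7.89 CPM in old wild type, a narrower gap (1.13 ± 0.35, adjusted p = 0.144).

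The 4 leukocyte cytoskeleton and adaptor genes had a median of 1.68. Lcp1, the actin-bundling protein L-plastin, stood at 1.74, 2.004 and 2.40 CPM in young and 7.74, 7.74 and 8.23 CPM in old wild type (1.95 ± 0.66, adjusted p = 0.187). The 2 tested NADPH oxidase genes, Cybb and Ncf1, which serve the oxidative burst, had values of 2.02 and 1.65. Arg1, the arginase of alternatively activated macrophages, stood at 0.824, 0.617 and 0.400 CPM in young and 2.34, 0.993 and 1.63 CPM in old wild type (1.40 ± 0.56, adjusted p = 0.257). Lgals3 stood at 145, 170 and 151 CPM in young and 243, 222 and 244 CPM in old wild type. Its groups did not overlap either, and the value of 0.60 ± 0.18 (adjusted p = 0.123) was the second smallest of the 42.

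The 4 genes of MHC class II antigen presentation had the smallest median of any role group with age, 0.83, with a range of 0.18 to 0.90, and 3 of the 4 overlapped between young and old. Cd74, the chaperone of class II molecules, stood at 5.38, 7.55 and 4.41 CPM in young and 13.4, 10.5 and 6.87 CPM in old wild type (0.85 ± 0.78, adjusted p = 0.695). The C1q chains, which form the recognition part of complement C1 and are made by tissue macrophages, had values of 2.11 to 2.42 and no overlap in any of 3 genes. The difference between these 2 groups was noticed after the values were seen and is given as a description. The 3 C1q genes summed to 9.11, 17.0 and 4.97 CPM in young and 52.1, 36.2 and 50.5 CPM in old wild type. The 4 class II genes summed to 9.84, 19.7 and 9.45 CPM in young and 26.4, 21.3 and 13.7 CPM in old wild type. The ratio of the C1q sum to the class II sum was 0.926, 0.859 and 0.525 in young and 1.98, 1.70 and 3.68 in old wild type. The knockout libraries gave 0.802, 0.875 and 0.0625 in young and 0.739, 1.45 and 1 in old mice. Old wild type libraries thus had the 3 highest ratios of the 12, including replicate 2, which had many reads outside genes. The lowest ratio, in young knockout replicate 3, rests on 1 C1q read against 16 class II reads.

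**Figure D2:**
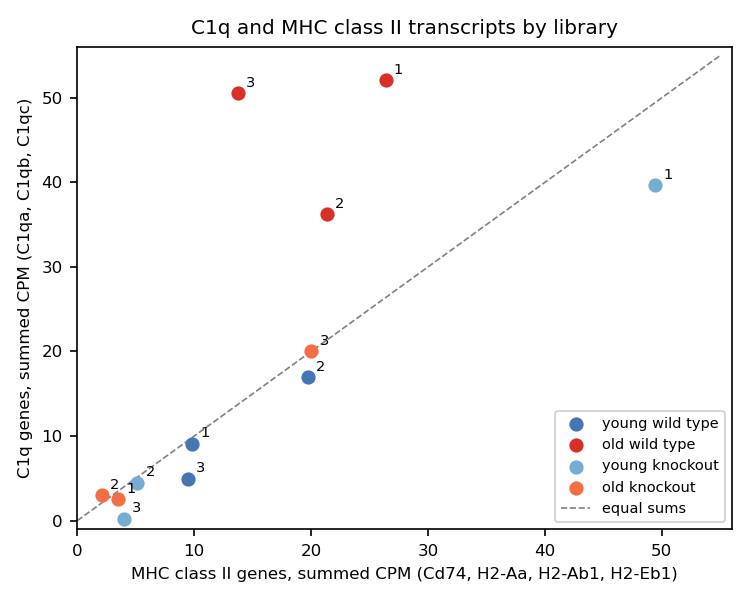
Summed CPM of the 3 C1q genes (vertical axis) against that of the 4 MHC class II genes (horizontal axis), 1 point per library, coloured by group and numbered by replicate, with a dashed line where the sums are equal. Old wild type libraries have C1q sums of 36.2 to 52.1 CPM at class II sums of 13.7 to 26.4 CPM, while young knockout replicate 1 has 39.7 against 49.4 CPM.

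The second comparison asked whether loss of Hoxa9 alters these transcripts in old mice. Of the 42 tested genes, 2 had a positive and 40 a negative log2 fold change, knockout against wild type (48.9% of all genes tested were positive), and the median was -2.10. Of the 42, 8 fell past the threshold (7.21% of all genes tested did) and 0 rose (9.52% of all genes tested did). With only the 6 old libraries in the fit, 21 of 39 members fell, against 10.4% of all genes called lower. In 28 genes all 3 knockout libraries lay below all 3 wild type libraries (20.4% of all genes tested did). The 8 were Cd68, Slc11a1, Fcer1g, Cd163, Msr1, Lcp1, Arg1 and Mrc1. The old wild type libraries are the same as those of the ageing comparison, so the values of the 2 comparisons are not independent. For genes that passed the filter only through old wild type, a negative value was likewise favoured in advance.

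Cd68 stood at 3.45, 3.74 and 2.61 CPM in the old knockout libraries, all below its wild type range of 13.9 to 15.2 CPM. Its log2 fold change was -2.11 ± 0.45 (adjusted p = 0.00937, edgeR's quasi-likelihood test). Slc11a1 stood at 2.40, 2.07 and 3.19 CPM in old knockout and changed by -1.40 ± 0.32 (adjusted p = 0.0119). These 2 genes passed the threshold in all 6 fits that left out 1 library of the comparison. Fcer1g stood at 0.450, 0.334 and 1.16 CPM in old knockout (-2.97 ± 0.73, adjusted p = 0.0166) and passed in 4 of the 6. Of the other 5 genes, Msr1, Lcp1 and Arg1 each passed in 1 of the 6 fits, and Cd163 and Mrc1 in 0.

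Cd163 stood at 3.45, 3.14 and 4.06 CPM in old knockout, a tight group below the wild type range (-1.28 ± 0.37, adjusted p = 0.0322). Mrc1 stood at 0.901, 1.20 and 4.35 CPM (-3.22 ± 0.96, adjusted p = 0.0452). Msr1 had 1, 1 and 3 reads in old knockout, or 0.150, 0.0668 and 0.871 CPM (-3.38 ± 0.99, adjusted p = 0.0334). In both of these receptors replicate 3 was the highest of its group and still lay below every old wild type library. Lcp1 stood at 1.05, 0.668 and 3.19 CPM (-2.53 ± 0.73, adjusted p = 0.0356). Arg1 stood at 0.750, 0.201 and 0.290 CPM (-2.07 ± 0.64, adjusted p = 0.0426), with replicate 1 the highest. All 8 genes thus lacked overlap between the genotypes.

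Among the genes that did not pass, Csf1r stood at 1.35, 1.67 and 6.10 CPM in old knockout (-2.17 ± 0.98, adjusted p = 0.153), below all old wild type libraries. Emr1 stood at 0.150, 0.334 and 2.61 CPM, also without overlap (-3.28 ± 1.07, adjusted p = 0.0582). Cd74 stood at 1.35, 0.936 and 6.39 CPM (-2.11 ± 0.89, adjusted p = 0.127), again below every old wild type library. Replicate 3 was the highest of the group in each of these 3 genes. Lyz2 stood at 8.55, 6.68 and 45.3 CPM, so that replicate 3 reached the wild type range of 45.0 to 48.9 CPM (-1.35 ± 0.78, adjusted p = 0.258). Ptprc stood at 0.3002, 0.401 and 3.77 CPM, with replicate 3 above the highest wild type library (-1.55 ± 1.22, adjusted p = 0.407).

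Over all 47 genes, old knockout replicates 1 and 2 both lay below every old wild type library in 43. Replicate 3 lay below every old wild type library in 29, within their range in 8 and above it in 10. The share of all genes in these positions was not taken, so the counts only describe the libraries. Replicate 3 also had 70.8% of its reads outside genes, a Lars2 share of 25.0% and the highest summed level of neutrophil markers, 145 CPM against 11.7 to 45.4 CPM elsewhere. Replicates 2 and 3 held the many Ddx3y reads described above, so their sex may differ from that of the old wild type libraries. The part of these features in the member levels was not tested. Without old wild type replicate 2 and old knockout replicate 3, the genes without overlap numbered 39 of 42 (29.3% of all genes tested), and with old knockout replicate 1 alone they numbered 39 (36.6%). The fits with these libraries left out called 0 members, but only 0.0217% and 0.807% of all genes, and the one with a single old knockout library takes its spread from the other groups. Offsets for GC content left 5 of the 8. Several other marker lists had genes past the threshold in this comparison, in which 9.52% of all genes tested were higher and 7.21% lower. Higher in knockout were 3 of 7 tested neutrophil markers, 3 of 8 pericyte and smooth muscle markers and 2 of 10 fibroblast markers. Of 13 satellite cell and myoblast markers, 1 was higher and 2 were lower. Their part in the result was not tested.

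**Figure D3:**
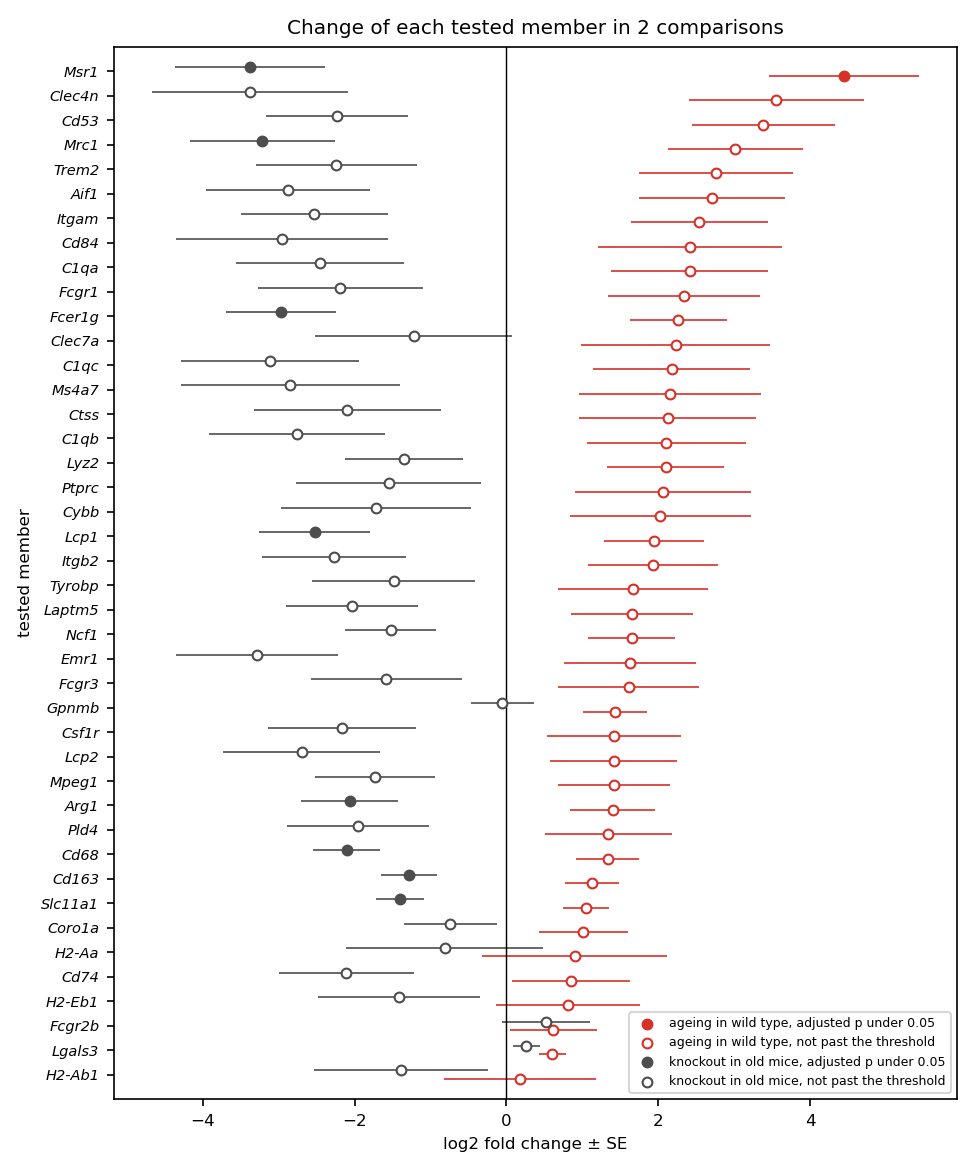
Log2 fold change (horizontal axis) of each of the 42 tested genes (vertical axis, ordered by the change with age in wild type) for age in wild type (red) and knockout in old mice (grey), with bars for the SE and filled points for genes past the threshold. Values lie above 0 for all 42 genes with age in wild type and below 0 for 40 of 42 with knockout in old mice.

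In young mice the knockout libraries spread too widely for a common description. The median log2 fold change, knockout against wild type, was 0.91, with 38 of 42 genes positive (49% of all genes tested were). In 0 of the 42 did the genotypes not overlap, against 16% of all genes with knockout higher and 19.6% with knockout lower. Without young knockout replicate 1 the median was -1.33 and 6 of 42 were positive. Msr1 alone passed the threshold (3.12 ± 1.05, adjusted p = 0.0484), 1 of 42 against 10.9% of all genes called higher. Its young knockout libraries had 25, 4 and 0 reads, or 2.07, 0.513 and 0 CPM, so the groups overlapped. Without replicate 1 its value was 1.49 (adjusted p = 0.413). With only the young libraries in the fit, 0 of 26 tested members passed (12.1% of all genes were called in either direction).

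Young knockout replicate 1 was the highest of all 12 libraries in 22 of the 47 genes, above every young wild type library in 44 and above every old wild type library in 24. It also had the highest summed level of mature myofibre markers, 17366 CPM against 3711 to 11846 CPM elsewhere. Its sum of satellite cell and myoblast markers, 6989 CPM, was the lowest of all libraries. The part of these features in the member levels was not tested. Csf1r stood at 21.4, 1.92 and 0.745 CPM in young knockout, the first above and the other two below every young wild type library. Its log2 fold change was 0.95 ± 0.89 (adjusted p = 0.476) and turned to -1.61 without replicate 1. Emr1 stood at 9.44, 1.03 and 0.496 CPM and Ptprc at 8.12, 0.385 and 0 CPM, with the same order of libraries, and both values turned negative without replicate 1 (0.78 to -1.49, and 1.96 to -1.67). Cd74 stood at 16.8, 1.92 and 2.73 CPM, again with replicate 1 far above the other two. Both other libraries lay below every young wild type library in 16 of the 47 genes. For the counts of position in this paragraph the share of all genes was not taken. In replicate 3, 19 of the 47 genes had no read, and 3 reads there correspond to 0.745 CPM, so an absent read does not show absent expression.

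The spread between libraries was not uniform over the genes. Lyz2 stood at 62.5, 9.75 and 24.3 CPM in young knockout, and Lcp1 at 8.36, 2.31 and 0.496 CPM. Mrc1 stood at 9.94, 1.28 and 0 CPM and Fcer1g at 2.73, 0.256 and 0.496 CPM. Replicate 1 was the highest for these 4 genes, and replicate 3 was above every young wild type library for Lyz2 only. Cd68 stood at 9.03, 1.67 and 4.22 CPM, a narrower range. Cd163 (4.89, 2.95 and 2.23 CPM) and Slc11a1 (4.39, 2.82 and 3.23 CPM) spread less than these. Arg1 stood at 0.497, 0.513 and 0.248 CPM, on 6, 4 and 1 reads. Lgals3 stood at 199, 193 and 117 CPM.

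**Figure D4:**
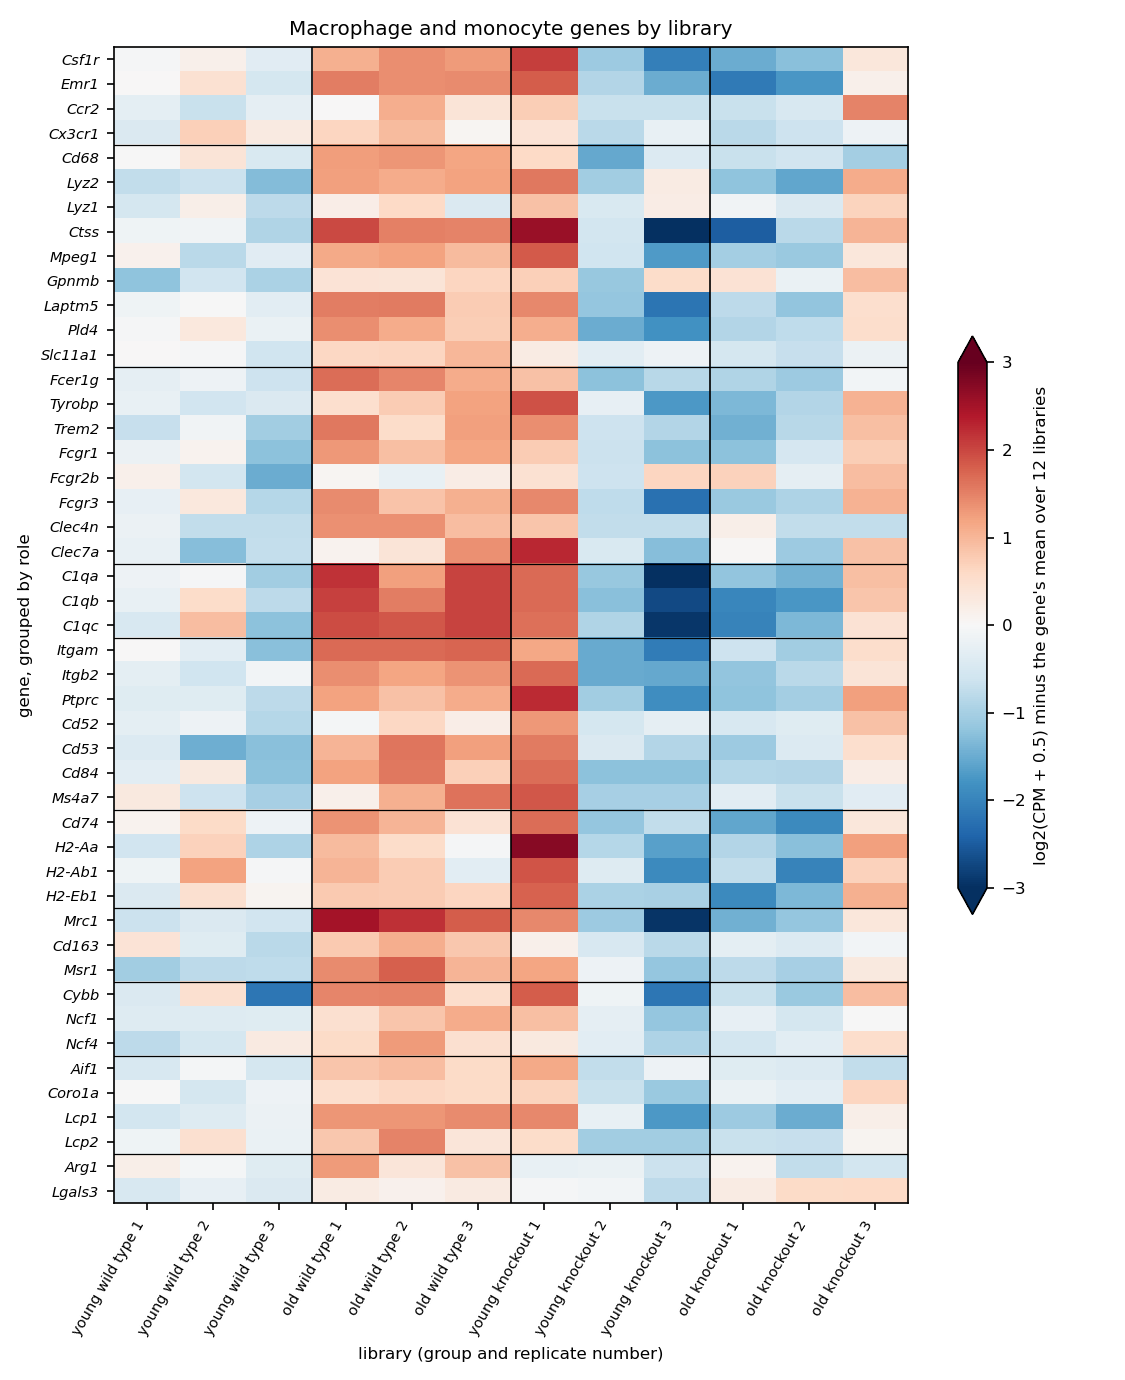
Level of each of the 47 genes (rows, ordered by role) in each of the 12 libraries (columns, by group), as log2(CPM + 0.5) relative to the mean of the gene over all libraries. The 3 old wild type columns are high for most genes, young knockout replicate 1 is the highest column in 22 genes, and old knockout replicates 1 and 2 are low.

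Age in the knockout gave 0 calls among the 42 genes in edgeR's quasi-likelihood test (0.0148% of all genes were called), 2 genes at an unadjusted p under 0.05 (9.72% of all genes), and 1 call, Lgals3, in DESeq2. The median log2 fold change was -1.28 with 5 genes positive (48.9% of all genes tested were), and it was 0.83 without young knockout replicate 1. Lgals3 stood at 241, 302 and 306 CPM in old knockout, above all 3 young knockout libraries (0.73, adjusted p = 0.205). It was the only tested member without overlap between the ages in the knockout (6.37% of all genes tested were higher without overlap). The difference between the age effects of the 2 genotypes also gave 0 calls (0.0148% of all genes were called), 23 genes at an unadjusted p under 0.05 (9.72% of all genes), and 1 call, Msr1, in DESeq2. It was negative for 41 of 42 genes with a median of -3.12, and the median was -0.83 without young knockout replicate 1. Genes that passed the filter only through old wild type were prone to negative values here too. Whether the age effects of single genes differ by genotype was therefore not shown at the adjusted threshold.

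Gpnmb, Lgals3 and Fcgr2b had the smallest fall, or none, of the tested members with knockout in old mice, and were picked out after their values had been seen. Overlap between the old genotypes was not limited to them, since only 28 of 42 members lacked it. Gpnmb, a glycoprotein of lysosomes and melanosomes that is not limited to myeloid cells, stood at 10.03, 15.7 and 11.9 CPM in young wild type and 31.8, 30.9 and 37.4 CPM in old wild type. It stood at 39.0, 10.5 and 35.0 CPM in young knockout and 32.4, 20.6 and 45.3 CPM in old knockout. Its log2 fold change for knockout in old mice was -0.05, with overlapping groups. Lgals3 and Fcgr2b were the only 2 with a positive value there, 0.26 and 0.52, and their groups overlapped as well.

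Genes of the same pathways outside the list were tested in the same fit. Of 14 myeloid signalling and cytoskeleton genes, 13 had positive values with age in wild type (median 1.82) and 14 had negative values with knockout in old mice (median -1.57), with 0 past the threshold in either and 7 and 6 at an unadjusted p under 0.05 (14.2% and 32.9% of all genes tested). Of 10 genes of the activation state, 3 rose with age in wild type (0.258% of all genes tested did). They were the cytokines Il1b (3.33, adjusted p = 0.00644), Tnf (2.85, adjusted p = 0.0112) and Il10 (2.78, adjusted p = 0.0253). The same list had 5 genes lower with knockout in old mice (7.21% of all genes tested were). These were led by Il1b (-3.84, adjusted p = 0.00158), Il10 (-4.64, adjusted p = 0.00167) and Tnf (-2.35, adjusted p = 0.00658). Il10, an anti-inflammatory cytokine, stood at 1.26, 0.771 and 0.481 CPM in young and 6.70, 5.56 and 5.85 CPM in old wild type, and at 0.3002, 0.267 and 0 CPM in old knockout. Old knockout replicate 3, high for many of the macrophage genes, had no Il10 read. There 1 read is 0.290 CPM, about the Il10 level of old knockout replicates 1 and 2, so the absent read does not set replicate 3 apart. Of 14 further surface receptors, 2 were lower in old knockout (7.21% of all genes tested were), C5ar1 (-3.96, adjusted p = 0.00856) and Cd86 (-4.52, adjusted p = 0.0457).

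Ligands and regulators of the members were tested as well. Of 9 ligands of the member receptors, 1 fell and 2 rose with knockout in old mice (7.21% and 9.52% of all genes tested did). Csf1, the ligand of Csf1r, stood at 389, 398 and 425 CPM in old wild type and 254, 268 and 306 CPM in old knockout (-0.55, adjusted p = 0.0298). Ccl2, the ligand of Ccr2 (1.06, adjusted p = 0.0392), and Cd47, which restrains uptake by macrophages (0.69, adjusted p = 0.0216), rose. C3, the central component of complement, was higher in old knockout (3.56, adjusted p = 0.0141), where the 3 C1q genes had values of -3.12 to -2.45 and did not pass. Of 8 transcription factors and growth factor receptors, 1 was higher in old knockout (9.52% of all genes tested were), Irf8 (1.38, adjusted p = 0.0479). Spi1, the gene of PU.1, was at a log2 fold change of 1.81 with age in wild type and -2.41 with knockout in old mice, neither past the threshold (adjusted p = 0.362 and 0.107).

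Markers of other blood cells were examined beside the members. Erythroid markers summed to 120 to 258 CPM in young wild type, 100 to 155 CPM in old wild type, 38.6 to 71.7 CPM in young knockout and 47.7 to 214 CPM in old knockout. With knockout in young mice 3 of 3 tested erythroid genes were lower, and with age in wild type 0 of 3 passed. Lymphocyte markers summed to 0.290 to 8.94 CPM and 0 of 14 were abundant enough to test. Neutrophil markers summed to 24.6 to 28.5 CPM in young and 21.7 to 45.4 CPM in old wild type, ranges that overlap, and 0 of 7 tested passed with age. Of these 7 neutrophil markers, 2 had a positive and 5 a negative log2 fold change with age (median -0.78), while 50.9% of all genes tested were positive. Among satellite cell and myoblast markers, 3 of 13, Pax7, Heyl and Fgfr4, were lower with age in wild type, and Pax7 stood at 333 to 396 CPM in young and 201 to 242 CPM in old libraries. Of 10 fibroblast markers, 3 (Cd248, Col1a1 and Col3a1) were lower with age, and the list summed to 9703 to 11899 CPM in young and 5369 to 6503 CPM in old wild type. Of 8 pericyte and smooth muscle markers, 1, Kcnj8, was lower. The share of all genes called lower is not given for age in wild type or for knockout in young mice. The counts of lower genes in those comparisons therefore only describe the lists. Whether these shifts of marker lists have a part in the higher levels of the macrophage and monocyte genes was not tested.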

How the data were processed

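Satellite cell RNA from 12 samples was measured by RNA-seq with a stranded total RNA kit after ribosomal RNA removal, per the labels' protocols. The authors deposited whole-number read counts per gene symbol, not normalized, 1 file per sample. TopHat, HTSeq and DESeq2 with build mm9 were used, per the submitters' processing notes, without versions. Whether reads were counted by strand and which gate sorted the cells are not given in the sources used here, so genes that overlap can share reads. The 5 summary lines that name no gene were left out of library sizes and tests. They held reads outside genes, 32.2% to 70.8% of uniquely aligned reads. Spearman correlations between libraries were 0.946 to 0.981 over genes, and no library repeated another.

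The samples were grouped by their labels. Low-count genes were removed with filterByExpr of edgeR 4.0.16 (R 4.3.3), which left 13540 of 22310 genes and 42 of the 47 members. Not tested were Ccr2, Cx3cr1, Lyz1, Cd52 and Ncf4. Counts were scaled with trimmed-mean factors (TMM) and fitted with the robust quasi-likelihood test, 1 mean per group over all 12 libraries, for 5 contrasts. P-values were adjusted by Benjamini-Hochberg over all genes tested, with a threshold of 0.05. Standard errors (SE) were taken from the log2 fold change and its F statistic, as the former over the root of the latter. Code was tested on simulated data. Gene reads of 4193433 to 20337015 per library put 3 reads at 0.145 to 0.871 CPM, which covers counting error only. Figures used pandas 2.3.3 and matplotlib 3.10.9.

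The members and lists were chosen with earlier results of these data known. Any member could be named, and values in every library are given for members past the threshold in a contrast and for Csf1r, Emr1, Lyz2, Cd68, Ptprc, Cd74 and Lgals3. Up to 3 genes of each other list past the threshold, by smallest adjusted p, could be named. Other choices made after seeing values are marked. Alternatives were RLE, upper-quartile and no scaling factors, a filter of 10 reads in total, a replicate block, GC offsets (GC content from GENCODE M21, matched for 92.3% of symbols and all 47 members), fits of only the groups compared, leaving out each library or the libraries that stand apart, and DESeq2 1.42.0.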

Additional observations from a re-analysis of the deposited data

How the results depend on the processing

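For age in wild type, 1 member was past the threshold, and 0 were with RLE scaling, upper-quartile scaling, GC offsets or without old wild type replicate 2 and old knockout replicate 3. The main fit called only 0.258% of all genes higher, so these 0 say little about the members. DESeq2 called 5 of 33 (3.51% of all genes) and the fit of only the groups compared 25, and leaving out 1 library gave 0 to 0. For knockout in old mice, 8 became 5 with GC offsets (7.74% of all genes, against 16.7% without offsets), 10 of 39 in DESeq2 (19.5% of all genes; Emr1, Itgam and Cd74 gained, Arg1 lost), 9 with library size alone, 6 with the filter of 10 reads, 21 with only the groups compared, and 0 both without old knockout replicates 2 and 3 and without old wild type replicate 2 and old knockout replicate 3. Those 2 fits called 0.807% and 0.0217% of all genes, so their 0 says little about the members, and the first has a single old knockout library, assumed to vary like the other groups. Leaving out 1 library gave 2 (without old wild type replicate 1 or old knockout replicate 2) to 7. No share over all genes is given for that range. For knockout in young mice, 1 became 0 with upper-quartile scaling, GC offsets, only the groups compared and without old wild type replicate 2 and old knockout replicate 3, and 2 of 33 in DESeq2 (25.2% of all genes). Leaving out 1 library gave 0 to 2 there. For age in the knockout and for the difference of the age effects, 0 became 1 in DESeq2 (1.04% and 0.431% of all genes), and leaving out 1 library gave 0 to 0 and 0 to 2. The cause of these shifts was not tested, beyond fewer libraries in the fits that leave some out. Members without overlap with knockout in old mice numbered 39 rather than 28 when libraries that stand apart were left out, while the share of all genes rose from 20.4% to 29.3% (without old wild type replicate 2 and old knockout replicate 3) and 36.6% (without old knockout replicates 2 and 3). That choice was made after seeing the data.

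Replicate numbers are shared by the groups, and no label says what a number marks. The deviations of same-numbered libraries from their group means had correlations of -0.287 to 0.274 over 18 pairs, 3 of them over 0.1. Differently numbered libraries were not compared, so these values do not settle whether the numbers pair the samples. With a replicate block, 0 members were called for age in wild type, 6 for knockout in old mice, 0 for knockout in young mice, 0 for age in the knockout and 0 for the difference. No share over all genes is given for these counts.

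With 1 library left out, the log2 fold changes for knockout in young mice ran from -1.61 to 1.48 for Csf1r, from -1.49 to 1.28 for Emr1 and from -1.67 to 2.52 for Ptprc, each lowest, and negative, without young knockout replicate 1. The sign held in every alternative for 41 of 42 genes with age in wild type (not H2-Ab1) and with knockout in old mice (not Gpnmb), but for 8 with knockout in young mice, 6 with age in the knockout and 30 for the difference. Depth limits the low members most in replicate 3 of each knockout group, where 3 reads are 0.871 CPM (old) and 0.745 CPM (young).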
